A study of Mus musculus with 12 samples.

Results

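The livers of 4 mice with diet-induced nonalcoholic steatohepatitis (NASH) that received CDDO-Me were compared with those of 4 NASH mice that received vehicle, 8 of the 12 liver RNA libraries of the study. The libraries were chosen by their labels alone, and the measurement was total gene reads, the reads on the exons and introns of each gene. All mice were C57BL/6J of wild-type genotype. Both NASH groups were fed CDAHFD, the usual abbreviation for a choline-deficient, amino acid-defined, high-fat diet, so the diet is shared by both sides of the comparison. CDDO-Me (bardoxolone methyl) was given by mouth at 10 mg/kg for 8 weeks, and the NASH vehicle mice received vehicle. A further group of 4 control mice without NASH, also given vehicle, entered the statistical fit and provides reference levels. The study asked how the drug protects the liver in this model. The sources used here give no age or sex of the mice and no length of the diet. Nothing states how the animals of a group were related, so p-values measure the spread between these libraries.

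CDDO-Me is a synthetic triterpenoid that binds cysteines of KEAP1, the adaptor that otherwise marks the transcription factor NRF2 (encoded by Nfe2l2) for destruction. NRF2 then accumulates, pairs with small MAF proteins and binds antioxidant response elements near genes for glutathione synthesis, quinone reduction, NADPH supply and export of conjugates. In steatohepatitis, monocytes enter the liver and become macrophages, some of which take up lipid around dying hepatocytes, while stellate cells become myofibroblasts that lay down collagen. In whole-liver RNA, fewer cells of a type and less RNA per cell cannot be told apart.

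The 12 libraries held 28161057 to 33852338 reads over 41325 genes, and 16456 genes passed the filter on low counts. Levels are given as CPM, the counts of a gene relative to the reads of its library, after scaling by the trimmed mean of M values (TMM). Means are given ± SD over 4 libraries, and log2 fold changes ± SE. Alb, the albumin of hepatocytes, stood at 22803 to 37954 CPM in NASH vehicle and 24432 to 37984 CPM in CDDO-Me libraries. Over the 8 NASH libraries the first principal component of log2 CPM held 48.9% of the variance and separated the groups. On it the NASH vehicle libraries lay at -15.8, -44.5, -40.5 and -48.0 and the CDDO-Me libraries at 24.7, 58.4, 56.3 and 9.58. NASH vehicle 1 and CDDO-Me 4 stood apart from their groups on the second component (15.5% of the variance), at 40.7 and -45.5. CDDO-Me 4 also held the most RNA of the smooth muscle genes Acta2 (42.4 CPM, against 2.99 to 10.4 in the other CDDO-Me libraries) and Myh11 (42.7 CPM, against 1.17 to 5.85). NASH vehicle 1 held the most RNA of Clec4f, a lectin of resident macrophages (110.0 CPM, against 16.2 to 30.4 in the other NASH vehicle libraries). The part of these libraries in the results was not tested, and the counts without each of them are given beside the totals.

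**Figure D1:**
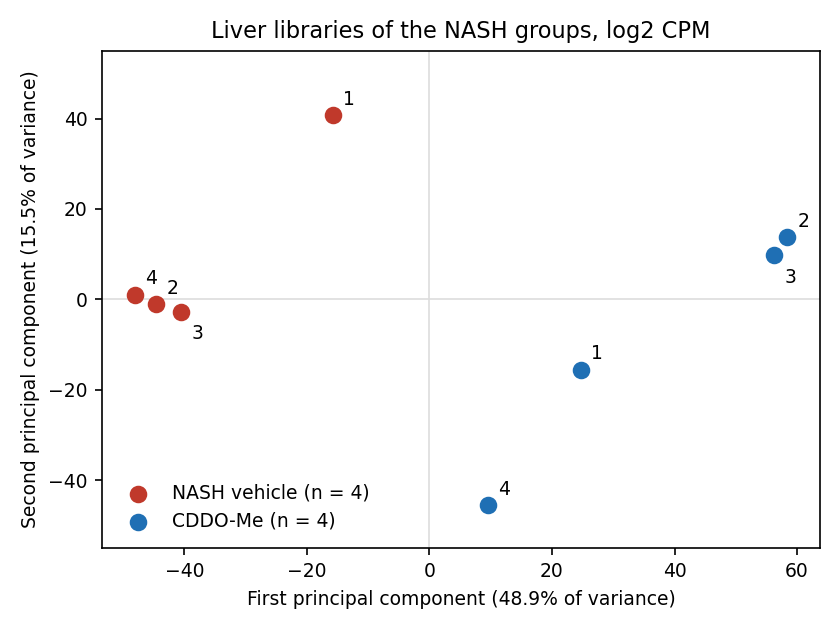
First and second principal component of log2 CPM of the 8 NASH livers, with the replicate number beside each point. NASH vehicle (red) and CDDO-Me (blue) separate along the first component, which holds 48.9% of the variance, and CDDO-Me 1 and CDDO-Me 4 lie nearer to the NASH vehicle libraries than CDDO-Me 2 and CDDO-Me 3 do.

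Detoxifying enzymes, glutathione genes and many cytochromes P450 had more RNA in CDDO-Me than in NASH vehicle livers, while macrophage, interferon-induced and scar matrix genes had less. Of the 16456 genes tested, 1545 were higher (9.39%) and 1191 lower (7.24%) in CDDO-Me than in NASH vehicle livers at an adjusted p under 0.05 (Benjamini-Hochberg) in edgeR's quasi-likelihood fit, together 16.6%. These shares over genes of all levels are the background given for the gene lists below. Where a list is given in 1 direction no member was called in the other. Most changes were modest, as 1977 of the 2736 called genes (72.3%) differed by less than 2-fold and the median absolute log2 fold change of called genes was 0.68. At least 2-fold changes were called for 397 genes that rose (2.41%) and 362 that fell (2.2%). In 3553 genes (21.6%) the 4 libraries of one group did not overlap those of the other. Among the 1442 genes with a mean of at least 100 CPM, 24.3% rose and 8.46% fell, whereas of the 2582 genes under 1 CPM 2.75% rose and 1.59% fell. The share depends on level, so lists of high mean level, such as amino acid breakdown, are better set beside the 24.3% and 8.46%. Genes in the lists were also called more often (22% higher and 15.4% lower) than genes in no list (8.49% and 6.65%). Protein-coding genes made up 1436 of the rises and 1149 of the falls, and long intergenic noncoding RNAs 44 and 20.

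The balance of rises and falls moved with the scaling, the tool and the libraries fitted. With TMM 56.5% of the calls were higher, with library totals alone 36.8% (926 higher and 1589 lower) and with limma on log2(TPM + 1) 23% (779 higher and 2607 lower). DESeq2 gave 47.6% (1683 higher and 1853 lower), edgeR with the size factors of DESeq2 48.7% (1306 and 1377), and edgeR on the 8 NASH libraries alone 48.3% (1481 and 1588). The median log2 fold change over all genes was -0.01 with TMM, -0.16 with library totals and -0.16 on log2(TPM + 1). Measured from that median, the NRF2 target genes described below lay 0.83 higher with TMM, 0.83 with library totals and 0.71 on the TPM scale, and core macrophage genes lay at -0.99, -0.98 and -0.99. A change of library scaling moves all genes by nearly the same amount. The near-equal values with TMM and library totals therefore follow from the method and test nothing. The list medians given below that lie above 0 with TMM lay below 0 on the TPM scale for Kupffer cell, NRF2 regulator, choline, stress response, fat synthesis, glucose, growth hormone axis, heat shock, hepatocyte identity, nuclear receptor and proteasome genes. The number of calls also rested on single libraries. Rises numbered 959 without NASH vehicle 3, 930 without NASH vehicle 4, 937 without CDDO-Me 2 and 947 without CDDO-Me 3. Falls numbered 767, 740 and 639 without NASH vehicle 2, 3 and 4, and 658 and 617 without CDDO-Me 2 and 3. Leaving out the libraries that stood apart left more calls, 1768 rises and 1305 falls without NASH vehicle 1 and 1972 and 1453 without CDDO-Me 4.

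**Figure D2:**
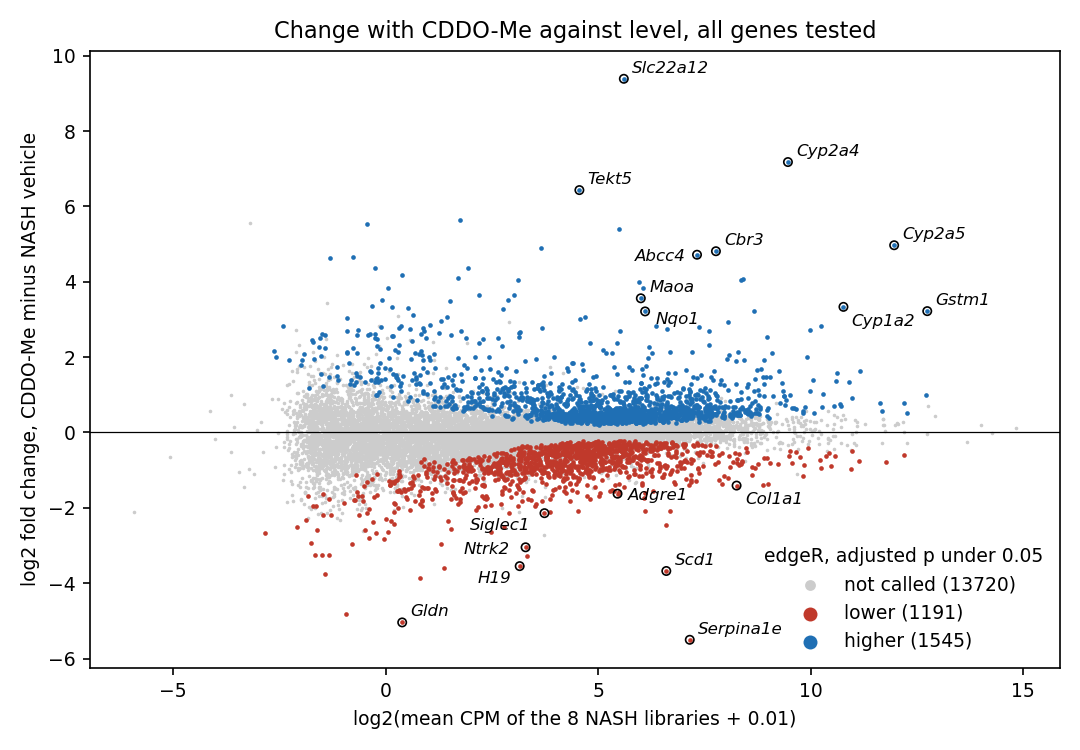
Log2 fold change of CDDO-Me against NASH vehicle for the 16456 genes tested, plotted against the log2 of their mean CPM over the 8 NASH libraries plus 0.01. Blue and red points are the 1545 genes called higher and the 1191 called lower, grey points the genes not called, and circles mark genes named in the text, from Slc22a12 at 9.39 to Serpina1e at -5.50.

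The largest rise was that of Slc22a12, which encodes a urate transporter, at chr19:6535845-6543019 of GRCm38. It was at 0, 0.055, 0.295 and 0.186 CPM in the NASH vehicle libraries and 89.2, 70.5, 149 and 79.2 CPM in the CDDO-Me libraries, a log2 fold change of 9.39 ± 0.51 (SE), the size of which depends on the prior count of the fit because NASH vehicle libraries held almost no reads. The 4 control libraries held 0 reads, which allows up to 3 reads over the group by counting error alone. Nrxn2, a neuronal adhesion gene on the other strand (chr19:6418731-6544169), contains this locus and rose by 2.38. The strand of the reads is not stated, and reads of the overlapping genes cannot be told apart.

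Large rises were also found for the cytochromes Cyp2a4 and Cyp2a5, near-identical genes whose products oxidise steroids and coumarin. Cyp2a4 was at 10.4, 6.59, 8.57 and 13.1 CPM in NASH vehicle and 795, 1871, 1704 and 1234 CPM in CDDO-Me libraries (log2 fold change 7.18 ± 0.37, edgeR adjusted p = 2.13e-07). Cyp2a5 went from 263, 302, 220.1 and 200.3 CPM to 6342, 8161, 9528 and 6869 CPM (4.97 ± 0.28, adjusted p = 2.13e-07). Every CDDO-Me library lay above every NASH vehicle library for both, and in control livers Cyp2a5 stood at 203 ± 65.8 CPM (SD, n = 4). Reads of the copies can be exchanged, although 90.2% of Cyp2a4 reads and 91.6% of Cyp2a5 reads were unique.

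Other large rises belonged to enzymes and carriers of small molecules. Cbr3, a carbonyl reductase, rose from 14.99 to 421 CPM (4.81 ± 0.48), Abcc4, an efflux pump of the basolateral hepatocyte membrane, from 11.7 to 309 CPM (4.72 ± 0.26), and Slc7a11, the cystine-glutamate exchanger, from 7.39 to 117 CPM (3.98 ± 0.37). Maoa, the monoamine oxidase A, stood at 8.77, 11.2, 10.9 and 9.12 CPM and then at 85.2, 95.1, 139 and 153 CPM (3.56 ± 0.20). The female-predominant cytochromes Cyp2b13 and Cyp2b9 rose by 4.90 and 3.84, the nucleoside transporter Slc28a1 by 3.66. Genes of other kinds were also among the largest rises. Tekt5, a tektin of sperm flagella, was at 0.417 to 0.824 CPM in NASH vehicle and 37.7 to 53.5 CPM in CDDO-Me libraries (6.43 ± 0.35). Trim54, a ubiquitin ligase of muscle, went from 0.0255 ± 0.0295 to 1.42 ± 0.458 CPM, Coro6, a coronin, from 0.987 ± 0.527 to 16.3 ± 3.59 CPM, and Ces1h, a carboxylesterase, from 0.13 ± 0.0909 to 2.48 ± 0.76 CPM. The noncoding RNA listed as Mirt2_1 rose from 1.19 to 14.9 CPM.

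The largest fall was that of Serpina1e, one copy of the alpha-1-antitrypsin family of protease inhibitors. It was at 621, 85.6, 155 and 252 CPM in NASH vehicle and 4.71, 4.70, 8.03 and 7.14 CPM in CDDO-Me libraries (-5.50 ± 0.58, edgeR adjusted p = 8.98e-05), beside 8217 ± 1681 CPM in control livers. Scd1, which encodes a fatty acid desaturase, fell from 314, 95.9, 127 and 183 CPM to 20.99, 12.7, 9.63 and 12.8 CPM (-3.68 ± 0.39), beside 11588 ± 2966 CPM in control livers. NASH vehicle 1 held the most RNA of both genes, and no CDDO-Me library reached the lowest NASH vehicle library for either.

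Several of the other large falls were in genes near 0 in control livers. H19, an imprinted noncoding RNA of fetal liver, stood at 15.9, 8.55, 12.7 and 28.3 CPM and, with CDDO-Me, at 1.30, 1.65, 0.438 and 2.15 CPM (-3.55 ± 0.58). Gdf3, a growth factor of the TGF-beta family, fell from 3.24 to 0.213 CPM, Gldn, the adhesion protein gliomedin, from 2.52 to 0.0774 CPM, and Ntrk2, the receptor of brain-derived neurotrophic factor, from 17.5 to 2.09 CPM. Their control means were 0.662, 0.0473, 0 and 0.871 CPM in the order named. The ferritin receptor Scara5 (-2.65 as log2 fold change), the NKG2D ligand Raet1d (-3.28), the brush border myosin Myo7b (-2.97) and the cytochrome Cyp3a57 (-2.84) fell. The phosphate transporter Slc34a2 (-2.58), the disintegrin Adam11 (-2.52) and the Fc receptor-like gene Fcrls (-2.95) also fell. Fcrls lost its call without CDDO-Me 2 (adjusted p = 0.0549) and without CDDO-Me 3 (adjusted p = 0.0555).

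The pathway of the drug was examined first at the level of its regulators, which moved little. Of 14 tested genes for NRF2 and its regulators, 2 rose and 1 fell. In the regulator list the 2 rises became 1 without NASH vehicle 1, 3 or 4 or CDDO-Me 2 or 3, and the 1 fall became 0 without NASH vehicle 2 or 3 or CDDO-Me 1, 2 or 3. Nfe2l2 itself was lower, at 90.7, 102, 102 and 87.7 CPM in NASH vehicle and 73.04, 71.2, 65.1 and 81.2 CPM in CDDO-Me libraries (-0.40 ± 0.11, edgeR adjusted p = 0.0285). That call was lost without NASH vehicle 2, NASH vehicle 3, CDDO-Me 1, CDDO-Me 2 or CDDO-Me 3 (adjusted p 0.0601 to 0.0947). Keap1, at 68.8, 63.5, 63.5 and 65.7 CPM with vehicle and 73.7, 86.9, 82.7 and 65.3 CPM with CDDO-Me, did not pass (log2 fold change 0.24 ± 0.09, adjusted p = 0.0827). Mafg, a small MAF partner of NRF2, rose from 137 ± 5.46 to 193 ± 8.67 CPM (0.50 ± 0.10, adjusted p = 0.00493), though not on log2(TPM + 1) (adjusted p = 0.150). Bach1, a repressor at the same elements, stood at 39.9 to 44.8 and 50.8 to 57.3 CPM and did not pass (adjusted p = 0.0692).

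Genes of the pathways that NRF2 is known to activate moved further. Over 7 lists of such genes, called NRF2 target genes here, 106 were tested, of which 67 rose and 4 fell. Of all genes 9.39% rose and 7.24% fell, and the median log2 fold change was 0.82 for the lists beside -0.01 for all genes. The lists hold whole families, and whether NRF2 activates each member was not tested. They were chosen with earlier results of these data known, so the counts describe the lists and test nothing. Nqo1, the quinone reductase often used as a readout of NRF2, was at 13.7, 13.7, 11.8 and 14.3 CPM in NASH vehicle livers and 106, 144, 139.7 and 106 CPM in CDDO-Me livers, a log2 fold change of 3.21 ± 0.13 with the lowest p among the rises (edgeR adjusted p = 1.97e-08). The CDDO-Me libraries lay far above both NASH vehicle and control libraries (4.57 to 6.00 CPM). The mean of log2(CPM + 0.5) over the 106 genes was 6.15, 6.21, 6.13 and 6.19 in NASH vehicle and 7.09, 7.34, 7.34 and 7.09 in CDDO-Me libraries, so the CDDO-Me libraries 1 and 4 were the lower ones. The count of rises was 58 to 71 over fits that each left out 1 library.

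The promoter stretches of 4 of these genes are shown because they hold the core of the antioxidant response element, the element NRF2 binds. They are the 4 NRF2 target genes with the highest rise (1.91, 1.41, 1.28 and 1.14 as log2 fold change, in the order shown) whose RefSeq promoter window holds the core with 25 bases on either side before the start. Windows on a single chromosome were left out of this choice. Each stretch is written 5′ to 3′ on the strand of its gene, which is the plus strand for all 4, with the 9 bases of the motif in capitals.
Ggt1: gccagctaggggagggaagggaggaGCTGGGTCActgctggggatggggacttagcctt
Txnrd1: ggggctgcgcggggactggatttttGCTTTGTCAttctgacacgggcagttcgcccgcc
Gclm: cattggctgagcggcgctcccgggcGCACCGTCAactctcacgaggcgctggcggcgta
Bmp6: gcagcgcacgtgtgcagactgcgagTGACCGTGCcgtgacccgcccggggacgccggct

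The stretches lie at chr10:75568601-75568659 (Ggt1), chr10:82859089-82859147 (Txnrd1), chr3:122245398-122245456 (Gclm) and chr13:38345583-38345641 (Bmp6) of GRCm38.p6, from RefSeq, with the motif 27, 83, 125 and 99 bases before the start. The motif searched was TGACNNNGC on both strands, and it overlaps the AP-1 site where its N bases read TCA. In Ggt1, Txnrd1 and Gclm it lies on the strand opposite to the gene. Ggt1 had 4 promoter windows and Txnrd1 3, and the distances count from the start of the window shown. Windows of 300 bases, from 250 before to 50 after the start, were matched for 12095 of the 16456 tested genes, and 16.7% of these genes held the motif in at least 1 window. The share was 17.5% of the genes that rose, 17.7% of those that fell and 16.5% of those not called. Of the NRF2 target genes it was 21.1% of those that rose (12 of 57) and 19.4% of the others (6 of 31). These shares are descriptions without a test, and distal elements were not searched.

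Most glutathione genes rose, from cystine import to conjugation. Of 12 tested genes of glutathione synthesis and cystine supply 9 rose (median 1.11). Gclc, the catalytic subunit of the enzyme that sets the rate of glutathione synthesis, stood at 315, 229, 293 and 238 CPM in NASH vehicle and 1263, 2044, 2156 and 1600.3 CPM in CDDO-Me libraries (2.72 ± 0.18, edgeR adjusted p = 9.11e-07). Its modifier subunit Gclm rose from 177 ± 11.6 to 429 ± 57.8 CPM (1.28 ± 0.11), with only 37.2% of its reads unique. The glutathione reductase Gsr rose by 1.40 ± 0.14, the synthetase Gss by 0.93 ± 0.13 and the neutral amino acid carrier Slc1a4 by 2.12 ± 0.24. Of 21 glutathione S-transferases, which couple glutathione to reactive molecules, 17 rose (median 1.58). Gstm1 was at 1369, 1223, 1332 and 1376 CPM and then at 11153, 14284, 13571 and 10399.5 CPM (3.22 ± 0.17), with the groups far apart. Gsta2 (2.93), Gstm3 (2.82), Gstm4 (2.69), Gstp2 (2.68), Gsta4 (2.31), Gstm2 (2.13) and Mgst3 (1.75) rose as well. Gsta1 (4.05) and Gstt3 (2.11) did so on mostly shared reads, with 24.9% and 22.5% unique, and reads of such near-identical copies could be split between them.

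Quinone and carbonyl detoxification, thioredoxin and NADPH supply also moved up. In the first of these lists 11 of 14 genes rose and 1 fell (median 1.24), with Cbr1, a carbonyl reductase, at 81.4, 85.2, 71.1 and 74.5 CPM in NASH vehicle and 639, 799, 896 and 576 CPM in CDDO-Me livers (3.22 ± 0.16), the aldehyde oxidase Aox1 at 1.46 ± 0.14 and the esterase Esd at 1.21 ± 0.13. In the quinone and carbonyl list the 1 fall became 0 without NASH vehicle 4 or CDDO-Me 3. Of 19 thioredoxin and peroxide genes 10 rose and 1 fell (median 0.48). In the thioredoxin list the 1 fall became 0 without NASH vehicle 4 or CDDO-Me 3. Srxn1, which repairs oxidised peroxiredoxins, rose from 147 ± 7.25 to 852 ± 206 CPM (2.53 ± 0.16), and Txnrd1, the thioredoxin reductase, from 225 ± 8.77 to 596 ± 109 CPM (1.41 ± 0.13). Catalase (Cat) stood at 1423, 925, 1073 and 992 CPM and then at 3105, 3793, 3944 and 2889.6 CPM (1.64 ± 0.17), near its control level of 3288 ± 343 CPM. The selenoprotein Gpx2 rose from 2.05 ± 1.02 to 87.7 ± 11.5 CPM with 39.02% of its reads unique. Of 10 genes of NADPH supply 5 rose (median 0.38), among them the pentose phosphate enzymes Pgd (1.13 ± 0.13) and Tkt (1.00 ± 0.10) and the malic enzyme Me1 (0.73 ± 0.16). G6pdx, which opens the pentose phosphate path, did not pass, at 15.6 to 26.5 CPM in NASH vehicle and 14.6 to 27.04 CPM in CDDO-Me (adjusted p = 0.505).

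Iron and heme genes split. Of 19 tested, 10 rose and 2 fell (median 0.79). In the iron and heme list the 2 falls became 1 without NASH vehicle 4 or CDDO-Me 3. The heme transporter Slc48a1 (1.54 ± 0.13), the biliverdin reductase Blvrb (1.90 ± 0.17), the last enzyme of heme synthesis Fech (0.89 ± 0.11), the signal that sets hepcidin Bmp6 (1.14 ± 0.12) and the iron exporter Slc40a1 (0.99 ± 0.11) rose. Hmox1, the heme oxygenase that is a textbook NRF2 target, went the other way, at 64.9, 96.6, 108 and 97.3 CPM in NASH vehicle and 37.7, 53.1, 40.6 and 60.4 CPM in CDDO-Me livers (-0.94 ± 0.17, edgeR adjusted p = 0.00218). All 4 CDDO-Me libraries lay below all 4 NASH vehicle libraries and above the control libraries (8.83 to 10.6 CPM). Hmox1 is also abundant in macrophages, whose genes fell as given below, and the part of macrophage RNA in this fall was not tested.

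**Figure D3:**
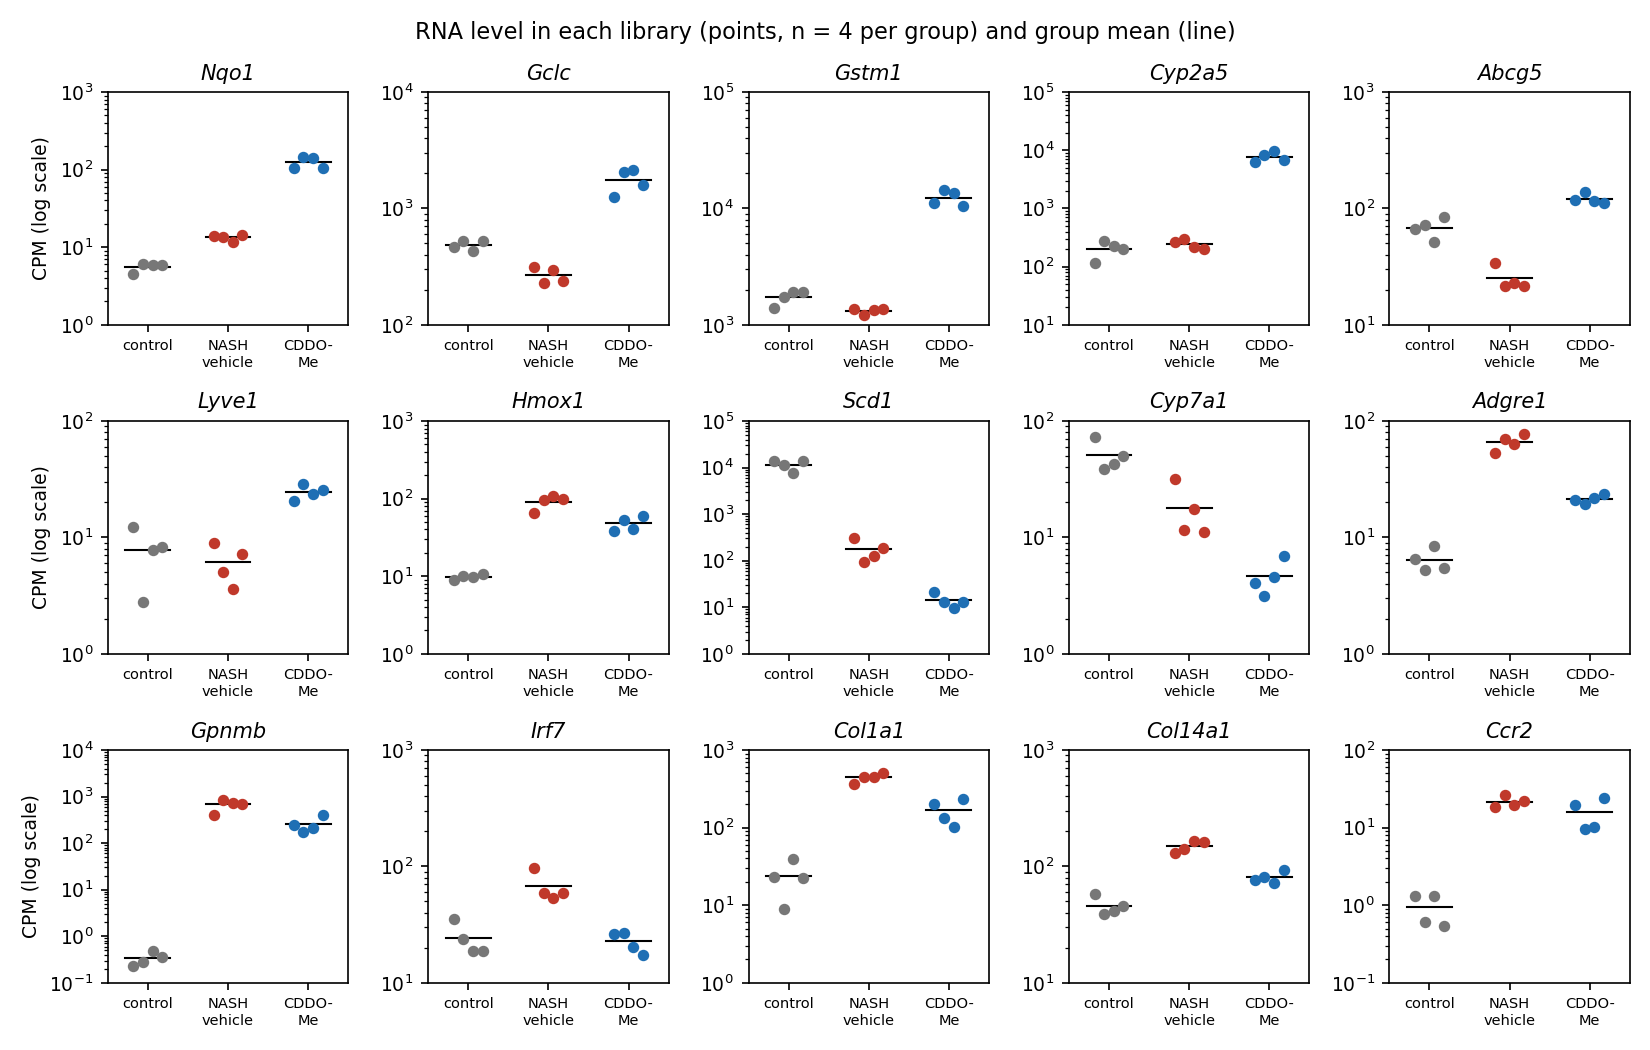
CPM on a log scale for 15 genes in each of the 4 control (grey), 4 NASH vehicle (red) and 4 CDDO-Me (blue) libraries, points in replicate order, with a line at the group mean. Nqo1, Gclc, Gstm1, Cyp2a5, Abcg5 and Lyve1 are higher in CDDO-Me than in NASH vehicle libraries, Hmox1, Scd1, Cyp7a1, Adgre1, Gpnmb, Irf7, Col1a1 and Col14a1 are lower, and Ccr2 overlaps.

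Enzymes that oxidise drugs and steroids rose beyond the NRF2 lists. Of 32 tested Cyp2 cytochromes 20 rose (median 0.89). Besides the Cyp2a pair, Cyp2c37 (1.66 ± 0.18), Cyp2c38 (1.68 ± 0.19), Cyp2c39 (1.79 ± 0.28), Cyp2c29 (1.32 ± 0.18), Cyp2a22 (1.28 ± 0.22) and the vitamin D hydroxylase Cyp2r1 (0.95 ± 0.16) rose. Cyp2b10, the gene that the receptor CAR (Nr1i3) classically induces, did not pass, at 0 to 0.239 CPM and 0.143 to 1.26 CPM (adjusted p = 0.0767), a level near the limit of detection. Of 9 genes of the aryl hydrocarbon receptor response, 4 rose (median 0.00), namely Cyp1a2, Cyp1a1, Nqo1 and Ugt1a6a. Nqo1 is also counted in the NRF2 lists, and only 0.134% of the reads of Ugt1a6a were unique. Cyp1a2, which clears caffeine, was at 314, 332, 297 and 316 CPM in NASH vehicle and 2809, 3473, 3628 and 2781 CPM in CDDO-Me livers (3.33 ± 0.15, edgeR adjusted p = 4.07e-08). Cyp1a1 went from 0.55 ± 0.0723 to 4.32 ± 0.474 CPM (2.96 ± 0.25), and the receptor's repressor Tiparp stood at 7.98 to 10.8 and 4.07 to 9.98 CPM and did not pass (adjusted p = 0.243). Of 20 Cyp3, Cyp4 and reductase genes 6 rose and 1 fell (median 0.24), with Cyp3a25 (1.39 ± 0.15), Cyp3a59 (1.25 ± 0.16) and the electron donor Por (0.67 ± 0.15) among the rises. In the Cyp3 and Cyp4 list the 1 fall became 0 without NASH vehicle 4 or CDDO-Me 2.

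Conjugating and hydrolysing enzymes followed the same direction in most members. Of 24 UDP-glucuronosyltransferases and sulfotransferases 16 rose (median 1.04). Ugp2 and Ugdh, which make the sugar donor, rose by 2.10 ± 0.14 and 1.65 ± 0.14, and the transferases Ugt2b35 (1.93 ± 0.15), Ugt2b5 (2.01 ± 0.18), Ugt2b1 (1.95 ± 0.22), Ugt2b34 (1.47 ± 0.12) and Ugt2b36 (1.28 ± 0.15) rose. Ugt1a1, Ugt1a6a and Ugt1a9 share their last exons, and 4.75%, 0.134% and 5.96% of their reads were unique, so their rises (0.97, 1.15 and 2.81) cannot be assigned to one of them. Of 33 aldehyde, aldo-keto and alcohol dehydrogenases 16 rose and 2 fell (median 0.42), led by Akr1c19 (25.3 ± 3.00 to 169.8 ± 36.9 CPM), Akr1c13 (1.41 ± 0.16), Akr1c14 (1.26 ± 0.18) and Aldh1a1, which makes retinoic acid (1.33 ± 0.20). In the dehydrogenase list the 2 falls became 0 or 1 without NASH vehicle 2, 3 or 4 or CDDO-Me 1, 2, 3 or 4. Of 13 carboxylesterases 8 rose and 1 fell (median 0.70). Ces2c (2.14 ± 0.13) and Ces1g (1.94 ± 0.14) rose, and Ces3a fell from 1536, 1141, 1115 and 1176 CPM to 581, 554, 655 and 431 CPM (-1.16 ± 0.16, edgeR adjusted p = 0.000363), while the other called members rose.

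Transporters of bile acids, sterols and conjugates rose while the first step of bile acid synthesis fell. In the bile acid list of 26 tested genes 11 rose and 1 fell (median 0.33), and of 11 drug efflux pumps 5 rose (median 0.50). Both lists hold Abcc2, Abcc3 and Abcc4, and the efflux pumps are also counted among the NRF2 target genes. The sterol exporter genes Abcg5 and Abcg8, which are neighbours and act as a pair, rose together: Abcg5 from 33.9, 21.5, 22.9 and 21.7 CPM to 119, 137, 115 and 110.4 CPM (2.27 ± 0.17) and Abcg8 by 2.12 ± 0.19. Abcc3 (1.46 ± 0.17), Abcc2 (1.10 ± 0.16) and Abcg2 (1.11 ± 0.14), which export conjugates, and the uptake carrier Slco1b2 (0.65 ± 0.14) rose. Cyp7a1, whose product sets the rate of bile acid synthesis, fell from 31.8, 11.5, 17.6 and 11.1 CPM to 4.02, 3.16, 4.52 and 6.97 CPM (-1.94 ± 0.38, edgeR adjusted p = 0.00567), beside 51.1 ± 15.2 CPM in control livers. Its counterparts Cyp7b1, of the alternative path (0.99 ± 0.18), and Akr1d1, a downstream reductase (1.33 ± 0.13), rose. Klb, the hepatocyte co-receptor of the hormone FGF15, rose by 0.90 ± 0.20.

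Genes of fat synthesis did not move as one. Of 26 tested 4 rose and 3 fell (median 0.07, below 0 with library totals and on the TPM scale). In the fat synthesis list the 4 rises became 7 without NASH vehicle 1, and the 3 falls became 5 without CDDO-Me 1. Beside Scd1, the regulator Srebf1 (69.6 ± 12.6 to 41.7 ± 4.89 CPM, -0.74 ± 0.16) and the acetyl-CoA carboxylase Acaca (62.9 ± 7.40 to 41.6 ± 5.02 CPM, -0.60 ± 0.13) fell. Me1 and the elongase Elovl3 (1.73 ± 0.40) rose, the latter with 1 high library (47.3, 39.7, 132 and 33.8 CPM in CDDO-Me). Fasn, the fatty acid synthase, was at 153, 124, 172 and 144 CPM with vehicle and 139, 75.1, 71.3 and 96.5 CPM with CDDO-Me and did not pass (adjusted p = 0.0522). Of 26 cholesterol genes 2 rose and 1 fell (median -0.06), the fall being that of the regulator Srebf2 (90.9 ± 2.24 to 67.5 ± 3.17 CPM, -0.43 ± 0.08). In the cholesterol list the 2 rises became 0 or 1 without NASH vehicle 2, 3 or 4 or CDDO-Me 1, 2 or 3, and the 1 fall became 3 without CDDO-Me 1. Of 16 lipid droplet genes 3 rose (median 0.31), and the coat protein Plin2 stood at 771, 903, 605 and 702 CPM in NASH vehicle and 673, 1166, 842 and 963 CPM in CDDO-Me (adjusted p = 0.356), with the groups overlapping. In the lipid droplet list the 3 rises became 0 without NASH vehicle 3 or 4 or CDDO-Me 2 or 3. Of 28 genes of lipid uptake and lipoproteins 3 rose and 4 fell (median 0.29). In the lipid uptake list the 3 rises became 7 or 8 without NASH vehicle 1 or CDDO-Me 4, and the 4 falls became 2 without NASH vehicle 4 or CDDO-Me 3. Mttp, which loads triglyceride onto lipoproteins, rose by 0.62 ± 0.13 and Fabp2 by 0.94 ± 0.21, whereas Pltp (-1.14 ± 0.21) and Fabp4 (-1.12 ± 0.18), lipid carriers also made by macrophages, fell. The fatty acid receptor Cd36 was at 244 to 347 and 373 to 513 CPM and did not pass (adjusted p = 0.0604).

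Oxidation of fatty acids and the respiratory chain shifted upward by small steps. Of 30 genes of fatty acid oxidation and ketone synthesis 13 rose (median 0.49), and of 31 nuclear-encoded subunits of the respiratory chain 18 rose (median 0.46, with every member above 0, from 0.12 to 0.72). Acaa1b, a peroxisomal thiolase, was at 865, 957, 711 and 750.1 CPM in NASH vehicle and 1394, 2147, 1720.5 and 1393 CPM in CDDO-Me livers (1.02 ± 0.19). Acadm (0.73 ± 0.16), the medium-chain dehydrogenase, Slc25a20 (0.69 ± 0.15), the carnitine carrier, Ehhadh (0.99 ± 0.24), Uqcrfs1 (0.72 ± 0.14), Ndufv2 (0.57 ± 0.11), Ndufb3 (0.65 ± 0.14) and Sdhd (0.60 ± 0.14) rose. The mean log2(CPM + 0.5) of the respiratory list was 7.002, 6.89, 6.68 and 6.83 in NASH vehicle and 7.15, 7.52, 7.53 and 6.93 in CDDO-Me libraries. CDDO-Me 4 overlapped NASH vehicle 1 on that measure, and CDDO-Me 2 and CDDO-Me 3 were the highest. The counts rested on single libraries. The respiratory list had 18 rises, with 4 to 27 rises when 1 library was left out and a change of over 1.5 times without NASH vehicle 2, 3 and 4 and CDDO-Me 2 and 3. Fatty acid oxidation had 13, with 5 to 19 rises when 1 library was left out and a change of over 1.5 times without NASH vehicle 3 and 4 and CDDO-Me 2 and 3.

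Markers of hepatocyte identity changed little as a group. Of 24 tested 5 rose and 1 fell (median 0.09, below 0 with library totals and on the TPM scale), and the summed CPM of the list was 39246 to 63254 in NASH vehicle and 41068 to 62141 in CDDO-Me libraries. In the hepatocyte list the 1 fall became 2 without control 3. Alb did not pass (0.12 ± 0.22, adjusted p = 0.755), while Tdo2, which breaks down tryptophan (1.40 ± 0.23), and the asialoglycoprotein receptor subunits Asgr1 (0.78 ± 0.17) and Asgr2 (0.61 ± 0.13) rose. Of 30 genes of amino acid breakdown and the urea cycle 9 rose (median 0.31), with 4 to 15 rises when 1 library was left out and a change of over 1.5 times without NASH vehicle 1, 2, 3 and 4 and CDDO-Me 2 and 3. The mean log2(CPM + 0.5) of that list was 7.84, 7.08, 7.16 and 7.22 in NASH vehicle libraries. Of all tested genes with a mean of at least 100 CPM, 24.3% rose. Of 18 pericentral genes, which mark hepatocytes around the central vein, 7 rose (median 0.26), with 4 to 7 rises when 1 library was left out and a change of over 1.5 times without NASH vehicle 4 and CDDO-Me 2. Glul, the glutamine synthetase, was at 1233, 1231, 1270.4 and 1166 CPM and then at 2175, 1980.5, 2135 and 2059.6 CPM (0.77 ± 0.11), Cyp2e1 rose by 0.77 ± 0.17 and Lect2 by 0.66 ± 0.13. Of 23 genes of choline and methionine metabolism 4 rose and 2 fell (median 0.12). In the choline and methionine list the 4 rises became 2 without NASH vehicle 2 or 4. Chka, the choline kinase, fell from 148, 124, 161 and 137 CPM to 61.9, 78.4, 71.6 and 62.8 CPM (-1.05 ± 0.13, edgeR adjusted p = 0.000112), and Bhmt, which remethylates homocysteine, from 1850.4 to 992 CPM (-0.90 ± 0.22), while Cept1, which makes phosphatidylcholine and phosphatidylethanolamine, rose (0.48 ± 0.08).

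Lists of hormone, glucose, nuclear receptor and clock genes held calls in both directions. Beside them, 9.39% of all genes rose and 7.24% fell. Of genes with at least 100 CPM 24.3% rose and 8.46% fell. These last shares suit the glucose list, whose mean log2(CPM + 0.5) was 6.75 to 6.90 in the NASH libraries. Of 25 genes of the growth hormone axis and of sex-biased liver expression 8 rose and 5 fell (median 0.05). In the growth hormone list the 5 falls became between 1 and 3 without control 4, NASH vehicle 1, 2, 3 or 4 or CDDO-Me 1, 2, 3 or 4. The complement gene C6 fell from 206, 142, 157 and 152 CPM to 33.6, 10.2, 39.4 and 35.8 CPM (-2.46 ± 0.34), and both the female-predominant Cyp2b13 and the male-predominant Cyp2d9 (1.08 ± 0.25) rose. Of 29 glucose genes 6 rose and 4 fell (median 0.17), with 2 to 9 rises when 1 library was left out and a change of over 1.5 times without NASH vehicle 2, 3 and 4 and CDDO-Me 2 and 3. In the glucose list the 4 falls became 1 or 2 without NASH vehicle 2, 3 or 4 or CDDO-Me 2 or 3. The glycogen-targeting subunit Ppp1r3c (1.34 ± 0.30) and the glucose-6-phosphate carrier Slc37a4 (0.65 ± 0.12) rose, and the leukocyte hexokinase Hk3 (-1.17 ± 0.18) fell. Of 32 nuclear receptors 4 rose and 1 fell (median 0.01). In the nuclear receptor list the 4 rises became 2 without NASH vehicle 2, 3 or 4 or CDDO-Me 1 or 3, and the 1 fall became 0 without NASH vehicle 4 or CDDO-Me 3 and 2 or 3 without control 1 or 3 or NASH vehicle 1. Nr1i3, the receptor CAR, rose from 96.5, 70.6, 89.5 and 59.4 to 224, 247, 198 and 209 CPM (1.48 ± 0.17), with 40.1% of its reads unique. Of 18 clock genes 4 rose and 1 fell (median 0.30), among them the output gene Hlf (0.75 ± 0.14). In the clock list the 4 rises became 2 without NASH vehicle 3 or 4 or CDDO-Me 1, and the 1 fall became 0 without control 1, NASH vehicle 3 or 4 or CDDO-Me 1, 2 or 4 and 2 without NASH vehicle 1. The sources used here do not give the time of day at which livers were taken.

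Macrophage RNA was lower with CDDO-Me for most markers. Of 21 core macrophage genes 15 fell, against 7.24% of all genes, with a median log2 fold change of -0.99. The groups did not overlap in 11 of them, all lower with CDDO-Me, against 10.2% of all genes. Adgre1, which encodes the surface protein F4/80, was at 52.8, 70.6, 63.3 and 77.98 CPM in NASH vehicle and 20.9, 19.4, 21.7 and 23.8 CPM in CDDO-Me livers (-1.63 ± 0.15, edgeR adjusted p = 1.23e-05), beside 5.26 to 8.44 CPM in control livers. Siglec1, a lectin of macrophages that is induced by interferon, had the lowest p of all falls, going from 22.5, 20.8, 21.2 and 22.3 CPM to 5.88, 4.53, 4.93 and 4.30 CPM (-2.14 ± 0.18, adjusted p = 7.60e-06). The CDDO-Me libraries of both genes lay between the control and the NASH vehicle libraries. The high-affinity IgG receptor Fcgr1 (-1.82 ± 0.17), the complement chains C1qa (-1.22 ± 0.15), C1qb (-1.31 ± 0.16) and C1qc (-1.30 ± 0.15), the scavenger receptor Msr1 (-0.99 ± 0.13) and the growth factor receptor Csf1r (-0.94 ± 0.18) fell. The mean log2(CPM + 0.5) of the list was 6.00, 6.62, 6.51 and 6.75 in NASH vehicle and 5.63, 5.28, 5.43 and 5.85 in CDDO-Me libraries, without overlap. The summed CPM of the list was 208.5 to 322 in control, 2291 to 4323 in NASH vehicle and 1321 to 2368 in CDDO-Me libraries. From 13 to 17 of the 21 fell when single libraries were left out.

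Lipid-associated macrophage genes fell in part. Of 20 tested 10 fell (median -0.73). Trem2, the lipid receptor that defines these cells, was at 54.9, 108, 93.01 and 108 CPM and then at 38.97, 30.5, 35.5 and 57.03 CPM (-1.17 ± 0.24, edgeR adjusted p = 0.00709), and CDDO-Me 4 overlapped NASH vehicle 1. Gpnmb fell from 408, 857, 742 and 706 CPM to 249, 172, 209 and 397 CPM (-1.40 ± 0.26), and Ms4a7, which marks macrophages derived from monocytes, from 11.8, 18.1, 19.2 and 23.5 CPM to 5.29, 3.51, 3.83 and 6.80 CPM (-1.90 ± 0.25). Of 31 lysosomal genes 16 fell (median -0.38), such as progranulin (Grn, -0.80 ± 0.12), the cholesterol carrier Npc2 (-0.70 ± 0.11), the collagen-cleaving cathepsin Ctsk (-1.77 ± 0.28) and Gusb (-0.72 ± 0.13). In the list of Kupffer cells, the resident macrophages, 1 of 12 genes rose (median 0.00), and whether this list differs from the core list was not tested. Of its members 6 lay above 0 and 6 below, from -1.01 to 1.59. Without NASH vehicle 1 there were 3 rises and the median was 0.44. With library totals there were 1 rise and 2 falls, and on log2(TPM + 1) 2 rises and 3 falls, each with a median of -0.17. The call of the main fit was the iron exporter Slc40a1, which hepatocytes and Kupffer cells both make. Clec4f stood at 110.0, 16.2, 25.6 and 30.4 CPM in NASH vehicle and 53.8, 89.7, 81.9 and 27.3 CPM in CDDO-Me (adjusted p = 0.617), Timd4 at 0.11 to 0.835 and 0 to 0.632 CPM (adjusted p = 0.714) and the scavenger receptor Marco at 21.6, 4.09, 6.41 and 4.03 CPM with vehicle and 21.6, 36.3, 28.6 and 21.6 CPM with CDDO-Me (adjusted p = 0.0713). For Marco the NASH vehicle 1 library was by far the highest of its group and lay just under the lowest CDDO-Me library.

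The signals that recruit monocytes were read next, as the study asked about the recruitment of macrophages. Of 29 monocyte genes and chemokines 8 fell (median -0.71), with 3 to 13 falls when 1 library was left out and a change of over 1.5 times without control 3, NASH vehicle 2, 3 and 4 and CDDO-Me 1, 2 and 3. Ccl2, the main attractant of monocytes, was at 7.45, 7.36, 8.32 and 5.57 CPM in NASH vehicle and 7.95, 9.48, 7.99 and 8.20 CPM in CDDO-Me livers (0.23 ± 0.19, edgeR adjusted p = 0.456, 40.5% of reads unique), and its receptor Ccr2 at 18.4, 26.2, 19.5 and 22.01 CPM with vehicle and 19.4, 9.62, 10.2 and 23.9 CPM with CDDO-Me (-0.44 ± 0.30, adjusted p = 0.351). Neither passed the test, and for Ccr2 the CDDO-Me libraries fell into low (2 and 3) and high (1 and 4) values. Other chemokines did fall. Cxcl16, made by macrophages, fell from 33.1, 53.4, 45.5 and 58.8 CPM to 28.1, 21.5, 21.3 and 27.4 CPM (-0.96 ± 0.16). Ccl3 (-2.05 ± 0.43) and Ccl4 (-2.29 ± 0.40), chemokines of the CC family, fell from low levels. NASH vehicle libraries ranged between 2.09 and 2.81 CPM for Ccl3 and between 1.20 and 2.02 CPM for Ccl4.

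Other leukocyte lists held fewer calls than the core macrophage list. In the main fit the shares of T and natural killer cell and of dendritic cell genes that fell still exceeded the 7.24% of all genes. Of the members 18 of 21 and 17 of 18 lay below 0, beside 8355 of all 16456 genes tested. Of 21 T and natural killer cell genes 5 fell (median -0.65), with 0 to 5 falls when 1 library was left out and a change of over 1.5 times without control 2 and 4, NASH vehicle 2, 3 and 4 and CDDO-Me 1, 2, 3 and 4. Of 18 dendritic cell and MHC class II genes 3 fell (median -0.66), with 1 to 6 falls when 1 library was left out and a change of over 1.5 times without NASH vehicle 1 and 4 and CDDO-Me 2 and 3. Of 8 neutrophil genes 1 fell (median -0.51), and of 11 B and plasma cell genes 2 rose and 1 fell (median 0.42). In the neutrophil list the 1 fall became 0 without NASH vehicle 2, 3 or 4 or CDDO-Me 1, 2 or 3. In the B and plasma cell list the 2 rises became 0 without NASH vehicle 1, 2, 3 or 4 or CDDO-Me 1, 2, 3 or 4. The fall in the last list was that of Sdc1 (-0.66 ± 0.16), a surface proteoglycan that hepatocytes also carry. H2-Q7, a class I molecule outside these lists, fell from 114, 87.5, 93.4 and 121 CPM to 43.4, 29.02, 26.3 and 25.3 CPM (-1.74 ± 0.17).

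Interferon-induced genes showed the highest share of falls among lists of at least 8 tested genes. Of 24 tested 21 fell (median -0.99), and the 4 CDDO-Me libraries did not overlap the 4 NASH vehicle libraries in 21 of them, against 10.2% of all genes with no overlap in that direction. Irf7, the transcription factor that amplifies interferon production, was at 97.3, 59.5, 53.4 and 59.6 CPM in NASH vehicle and 26.01, 26.8, 20.4 and 17.5 CPM in CDDO-Me livers (-1.57 ± 0.25, edgeR adjusted p = 0.00131), close to the control range of 18.6 to 35.5 CPM. Oas1a, which senses double-stranded RNA, went from 29.3, 29.7, 26.2 and 28.3 CPM to 12.6, 6.77, 6.82 and 11.1 CPM (-1.60 ± 0.20), and Ifit2 (-1.25 ± 0.20), Usp18 (-0.98 ± 0.15) and Irf9 (-0.78 ± 0.10) fell by smaller amounts. The mean log2(CPM + 0.5) of the list was 5.09, 4.80, 4.68 and 4.70 in NASH vehicle and 4.28, 3.71, 3.77 and 3.87 in CDDO-Me libraries. The count of falls was 13 to 22 over fits that left out 1 library each, lowest without CDDO-Me 3.

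Genes of the NF-kB system fell in part. Of 26 inflammatory cytokines and NF-kB targets 11 fell (median -0.55), with 7 to 14 falls when 1 library was left out and a change of over 1.5 times without NASH vehicle 3 and 4 and CDDO-Me 2 and 3. The subunit genes Nfkb1 (-0.56 ± 0.08), Nfkb2 (-0.75 ± 0.12) and Rela (-0.29 ± 0.07), the inhibitor Nfkbie (-0.87 ± 0.20) and the adhesion molecule Icam1 (-0.45 ± 0.10) fell. Il1rn, which blocks interleukin-1, fell from 21.97, 26.98, 23.2 and 30.4 CPM to 10.9, 10.5, 10.7 and 12.5 CPM (-1.20 ± 0.25). Il1b, the interleukin itself, was at 3.13, 2.89, 3.14 and 2.28 CPM and then at 1.44, 1.16, 1.31 and 1.75 CPM (-1.01 ± 0.27, edgeR adjusted p = 0.0209), a call that was lost without NASH vehicle 2, NASH vehicle 3, CDDO-Me 2 or CDDO-Me 3 (adjusted p 0.0517 to 0.0708). Tnf, at 2.56, 2.61, 2.09 and 2.15 CPM with vehicle and 0.825, 1.02, 1.35 and 1.66 CPM with CDDO-Me, did not pass (adjusted p = 0.144) although its groups did not overlap. Of 24 acute phase genes, most of them for proteins that hepatocytes secrete in inflammation, 4 rose and 10 fell (median -0.42). There were 6 to 11 falls when 1 library was left out, with a change of over 1.5 times without NASH vehicle 4. In the acute phase list the 4 rises became 2 without NASH vehicle 2, 3 or 4 or CDDO-Me 2 or 3. Lcn2, which binds bacterial iron carriers, fell from 300.0, 292, 276 and 425 CPM to 121, 161, 113 and 146 CPM (-1.25 ± 0.18). The metalloreductase Steap4 (-1.36 ± 0.17), the orosomucoid Orm2 (-1.02 ± 0.15) and the inhibitor chain Itih3 (-0.93 ± 0.16) also fell, while Orm3 (1.03 ± 0.20) and Serpina3m (0.89 ± 0.18) rose.

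**Figure D4:**
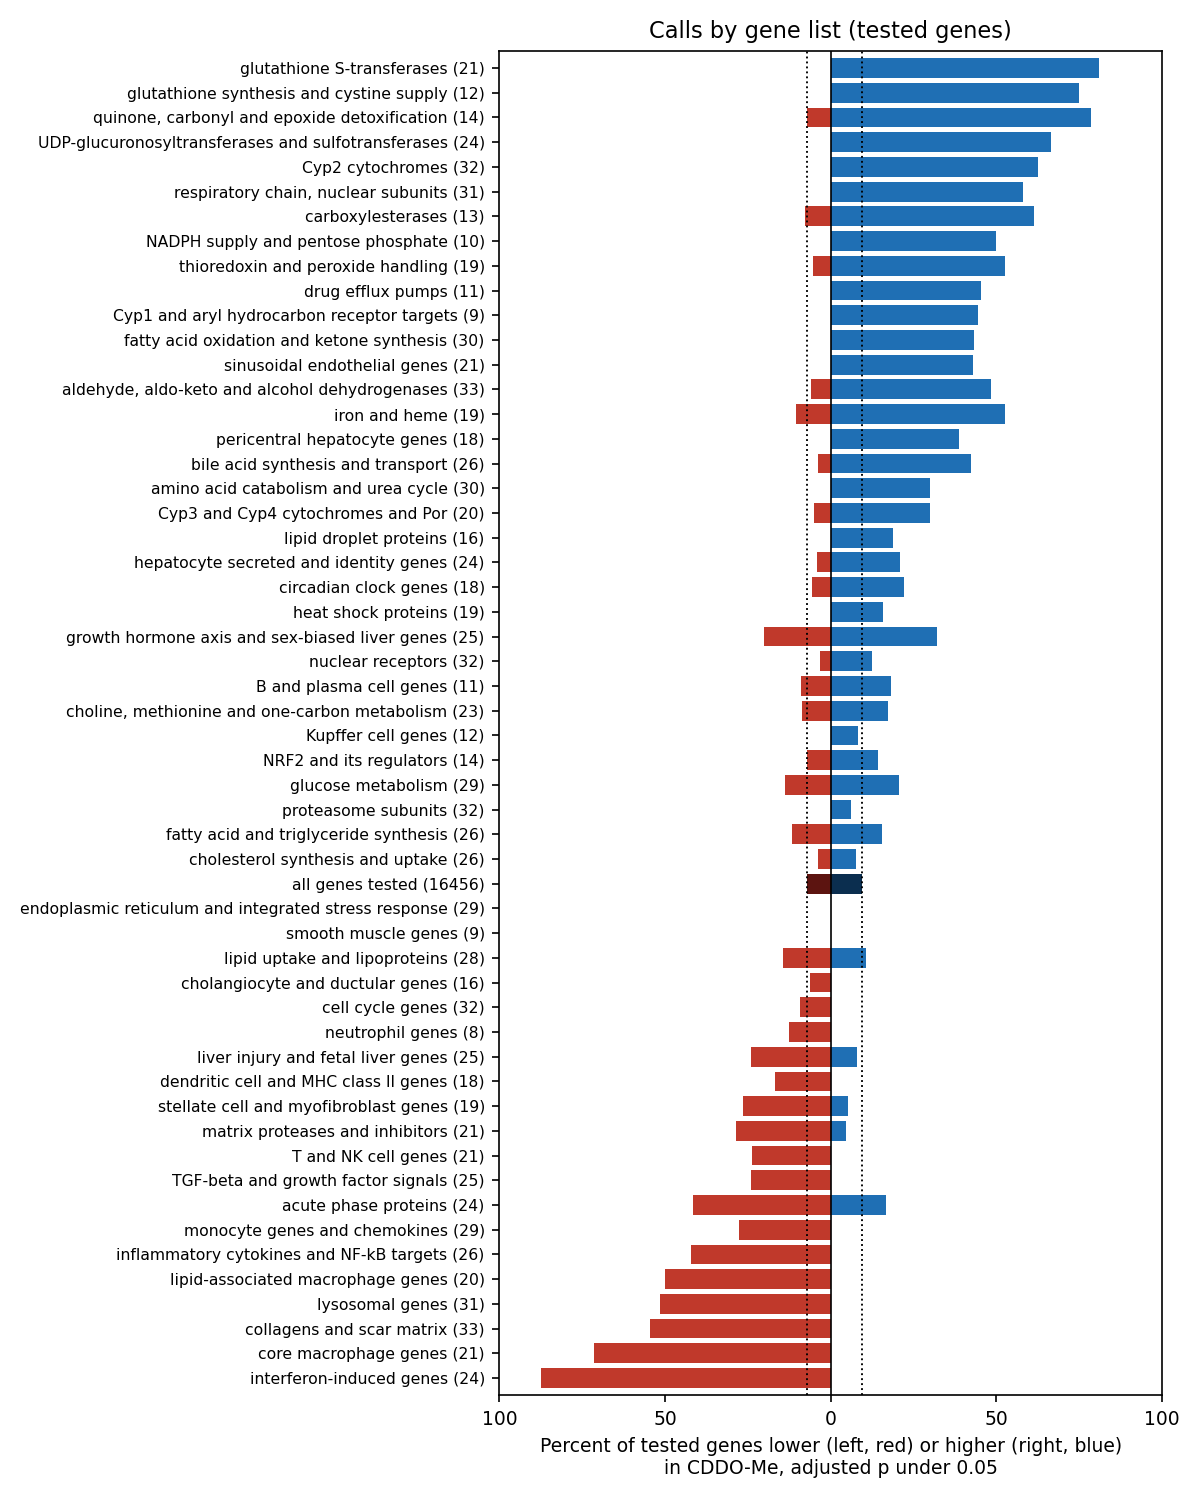
Percent of the tested genes of each list called higher (blue, right) or lower (red, left) in CDDO-Me than in NASH vehicle livers, for lists with at least 8 tested genes (number in parentheses), ordered by the difference of the shares. Dotted lines mark the shares of all 16456 genes, 9.39% higher and 7.24% lower; glutathione S-transferases lie at the top and interferon-induced genes at the bottom.

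Scar matrix RNA was lower with CDDO-Me for many genes. Of 33 tested collagen and scar matrix genes 18 fell (median -0.99). Col1a1, a chain of type I collagen, stood at 363, 453, 453 and 506 CPM in NASH vehicle and 201, 131, 103 and 232 CPM in CDDO-Me livers (-1.41 ± 0.36, edgeR adjusted p = 0.0219), beside 9.04 to 39.6 CPM in control livers. No CDDO-Me library reached the lowest NASH vehicle library, yet the call was lost without NASH vehicle 2, 3 or 4 and without CDDO-Me 2 or CDDO-Me 3 (adjusted p 0.0513 to 0.0743), and without the filter on low counts (adjusted p = 0.0679). Within the CDDO-Me group libraries 1 and 4 were the high ones. Col3a1 went from 511, 802, 811 and 826 CPM to 332, 244, 181 and 393 CPM (-1.36 ± 0.31) and kept its call without each single library (highest adjusted p = 0.0433). Calls were also kept in each of these fits for Col14a1 (131, 139.9, 167 and 162 CPM to 77.1, 81.2, 72.3 and 93.1 CPM, -0.89 ± 0.13), Col5a1 (-0.99 ± 0.15), the basement membrane chains Col4a1 (-0.88 ± 0.19) and Col4a2 (-0.99 ± 0.19), the cross-linking enzyme Loxl4 (-1.61 ± 0.28) and Sparc (-0.87 ± 0.19). The number of falls in the list was 11 without NASH vehicle 3, 11 without NASH vehicle 4, 11 without CDDO-Me 2 and 10 without CDDO-Me 3. The mean log2(CPM + 0.5) of the list was 5.76, 6.10, 6.20 and 6.28 in NASH vehicle and 5.22, 4.89, 4.67 and 5.61 in CDDO-Me libraries, so CDDO-Me 4 lay nearest to NASH vehicle.

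Proteases and growth factors of the scar moved in the same direction in fewer members. Of 21 matrix proteases and inhibitors 6 fell and 1 rose (median -0.79), with 4 to 11 falls when 1 library was left out and a change of over 1.5 times without NASH vehicle 1 and CDDO-Me 4. In the protease list the 1 rise became 0 without NASH vehicle 2 or 3 or CDDO-Me 2 or 3. Mmp14 (-0.79 ± 0.16), Mmp2 (-1.18 ± 0.27) and the plasminogen activator Plau (-1.36 ± 0.27) fell. The inhibitor Timp1 was at 7.10, 13.4, 13.3 and 16.3 CPM with vehicle and 5.72, 5.02, 3.98 and 9.52 CPM with CDDO-Me and did not pass (adjusted p = 0.078). Of 25 genes of TGF-beta and growth factor signals 6 fell (median -0.49), with 2 to 9 falls when 1 library was left out and a change of over 1.5 times without NASH vehicle 2 and 3 and CDDO-Me 1, 2 and 3. The matrix protein Ltbp2 (-1.68 ± 0.38) and the growth factor Pdgfa (-0.52 ± 0.12) fell. Of 19 stellate cell and myofibroblast genes 5 fell and 1 rose (median -0.36), with 1 to 7 falls when 1 library was left out and a change of over 1.5 times without NASH vehicle 2, 3 and 4 and CDDO-Me 1, 2 and 3. In the stellate cell list the 1 rise became 0 without control 1, 2 or 4, NASH vehicle 2, 3 or 4 or CDDO-Me 1, 2 or 3. Reln, made by stellate cells, fell from 96.5 ± 9.05 to 69.6 ± 1.24 CPM (-0.47 ± 0.10). Acta2, the actin of myofibroblasts and smooth muscle, was at 9.15, 8.46, 10.6 and 8.70 CPM in NASH vehicle and 10.4, 6.53, 2.99 and 42.4 CPM in CDDO-Me (adjusted p = 0.748). Its log2 fold change was 0.76 ± 1.33 with CDDO-Me 4 and -0.46 without it. Of 9 smooth muscle genes 0 were called by edgeR or DESeq2 and 0 had an unadjusted edgeR p under 0.05 (median -0.20), and their summed CPM was 179 to 219 in NASH vehicle and 132 to 311 in CDDO-Me libraries. Without control 3 and CDDO-Me 4 edgeR called 3 of them lower.

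Several genes of sinusoidal endothelium rose. Of 21 tested 9 rose (median 0.60), while 5 members lay below 0, the lowest at -0.77. DESeq2 called 9 higher and 3 lower. On log2(TPM + 1) limma called 8 higher and 2 lower, with a median of 0.24. Lyve1, a hyaluronan receptor of these cells, was at 8.88, 5.06, 3.61 and 7.24 CPM in NASH vehicle and 20.5, 28.95, 23.6 and 25.7 CPM in CDDO-Me livers (2.00 ± 0.37, edgeR adjusted p = 0.00393). The VEGF receptor Kdr went from 18.9, 10.7, 7.90 and 10.9 CPM to 22.4, 37.1, 29.4 and 22.7 CPM (1.21 ± 0.24), and the nuclease Dnase1l3 (1.12 ± 0.20), the lectin Clec4g (0.86 ± 0.18), the angiopoietin receptor Tek (0.96 ± 0.17) and Oit3 (1.17 ± 0.23) rose. NASH vehicle 1 was the highest NASH vehicle library for each of these 6 genes, and no CDDO-Me library fell below it. Of 16 cholangiocyte and ductular genes 1 fell (median -0.54). In the cholangiocyte list the 1 fall became 0 without NASH vehicle 3 or 4 or CDDO-Me 3 and 5 without control 3. The same list had 6 falls when the 8 NASH libraries were fitted alone and 8 without control 3 and CDDO-Me 4. The metalloprotease Mmp7, at 5.16, 43.9, 12.8 and 29.6 CPM in NASH vehicle and 2.71, 2.00, 1.68 and 7.34 CPM in CDDO-Me libraries, did not pass (adjusted p = 0.164).

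Markers of injury and fetal liver fell in part, and those of dividing cells held few calls. Of 25 tested injury and fetal genes 6 fell and 2 rose (median -0.44), with Lgals1 (-0.48 ± 0.10) and the TWEAK receptor Tnfrsf12a (-0.63 ± 0.14) lower and S100a10 (0.48 ± 0.09) higher. In the injury list the 2 rises became 1 without CDDO-Me 2. Of 32 cell cycle genes 3 fell (median -0.16), among them the replication helicase subunit Mcm7 (-0.38 ± 0.09), and Mki67 stood at 21.5, 15.3, 19.7 and 22.9 CPM with vehicle and 16.9, 23.8, 10.2 and 17.2 CPM with CDDO-Me (adjusted p = 0.621). In the cell cycle list the 3 falls became 1 without NASH vehicle 2, 3 or 4 or CDDO-Me 2 or 3 and 5 without control 1. Of 29 genes of the endoplasmic reticulum and integrated stress responses 0 were called by edgeR at an adjusted p of 0.05 and 5 had an unadjusted p under 0.05, while DESeq2 called 1 and the edgeR fit without CDDO-Me 4 called 2 higher and 1 lower. Fgf21, a hormone induced by that response and by fasting, was at 15.2, 38.9, 27.6 and 16.4 CPM with vehicle and 19.8, 66.5, 42.8 and 41.5 CPM with CDDO-Me with overlapping groups (adjusted p = 0.205). Of 32 proteasome subunits 2 rose (median 0.08) and of 19 heat shock genes 3 rose (median 0.12). In the proteasome list the 2 rises became 0 or 1 without control 1 or 4, NASH vehicle 1, 2, 3 or 4 or CDDO-Me 1, 2 or 3. In the heat shock list the 3 rises became 1 without CDDO-Me 2 and 5 without CDDO-Me 4. Parp16, an ADP-ribosyltransferase of the endoplasmic reticulum that no list held, fell from 58.6, 52.8, 51.8 and 56.6 CPM to 25.8, 26.2, 28.5 and 31.02 CPM (-0.98 ± 0.09) and was among the 5 falls with the lowest p.

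Compared with the control livers, the lists took different positions. The median log2 fold change of NRF2 target genes against control was 0.55 in CDDO-Me livers and -0.40 in NASH vehicle livers. Their mean log2(CPM + 0.5) was 6.11, 6.35, 6.33 and 6.27 in control libraries, which overlapped the 6.15, 6.21, 6.13 and 6.19 of NASH vehicle libraries. For glutathione S-transferases these medians were 0.56 and -0.93, for glucuronosyltransferases and sulfotransferases -0.04 and -1.12 and for Cyp2 cytochromes -0.96 and -1.53. Core macrophage genes lay 2.20 above control with CDDO-Me and 3.57 with vehicle, lipid-associated macrophage genes 3.52 and 4.17, interferon-induced genes 0.81 and 1.80, and collagens and scar matrix 1.57 and 2.53. Respiratory chain subunits lay at -0.53 and -0.99. Hepatocyte identity genes (-0.99 and -1.15) and fat synthesis genes (-1.04 and -1.24) lay below control in both NASH groups with TMM. These values share the control libraries and are given side by side only.

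**Figure D5:**
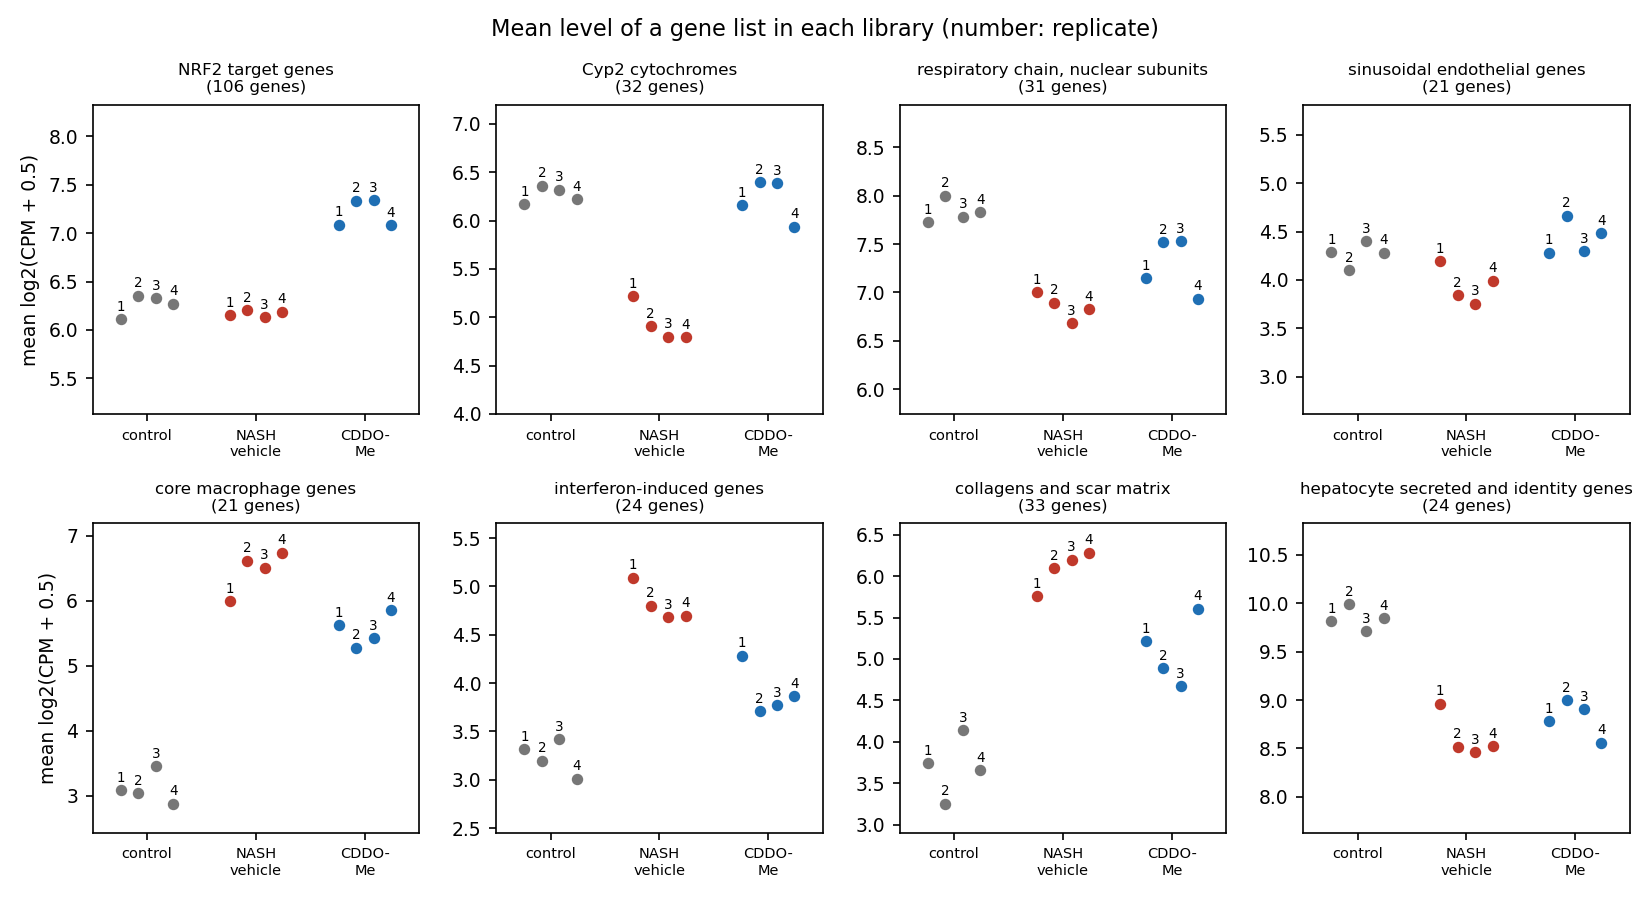
Mean of log2(CPM + 0.5) over the tested genes of 8 lists in each of the 12 libraries, with the replicate number above each point (control grey, NASH vehicle red, CDDO-Me blue). NRF2 target genes are at 7.09 to 7.34 in CDDO-Me and 6.13 to 6.21 in NASH vehicle libraries, core macrophage genes at 5.28 to 5.85 and 6.00 to 6.75, and CDDO-Me 1 and CDDO-Me 4 lie nearer to NASH vehicle than CDDO-Me 2 and CDDO-Me 3 for the macrophage, respiratory chain and collagen lists.

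The treated livers differed among themselves in the size of the change. In the 1289 genes that rose without overlap, CDDO-Me 4 was the lowest of the 4 CDDO-Me libraries in 51.5% and CDDO-Me 1 in 31% of genes, against 8.07% for CDDO-Me 2 and 9.46% for CDDO-Me 3. In the 949 genes that fell without overlap, CDDO-Me 4 was the highest in 46.7% and CDDO-Me 1 in 28.6%. Among 65 NRF2 target genes that rose without overlap, CDDO-Me 4 was the lowest in 35, CDDO-Me 1 in 29, CDDO-Me 3 in 1 and CDDO-Me 2 in 0. NASH vehicle 1 was the library nearest to the treated group in 53.9% of the rises and 49.1% of the falls. Drug exposure in single animals was not measured in the data used here.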

How the data were processed

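Liver poly(A) RNA was sequenced as paired-end reads in 12 libraries, 4 per group. The authors deposited raw read counts per gene (total, unique, exon and intron reads), TPM values and the fraction of each gene's reads that is intronic or unique, per the file headers, for 41325 genes. The genome build was GRCm38, per the submitters' processing notes. Neither aligner, counter nor strand setting is named (not given in the sources used here).

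Total gene reads were tested with edgeR 4.0.16 (R 4.3.3), using quasi-likelihood fits with robust dispersion, TMM scaling and filterByExpr (minimum count 10, minimum total 15), on all 12 libraries with 1 mean per group. The contrast was CDDO-Me minus NASH vehicle, two-sided, with Benjamini-Hochberg adjustment over 16456 genes at 0.05. The SE of a log2 fold change was its size divided by the root of F, and levels are TMM-scaled CPM. Alternatives used DESeq2 1.42.0 and limma 3.58.1, the latter also on log2 of the authors' TPM plus 1. The edgeR step was tested on simulated data.

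The comparison, the gene lists and the naming rule were chosen with earlier results of these data known. The rule allowed the 15 largest changes in each direction without overlap, the 5 lowest p, a set of key genes and up to 6 members of each list with the lowest p, plus further members of enzyme and transporter families. From the 302 called genes it allowed, those whose call held without each single library were preferred for the text, a choice made after their values were seen. Ggt1 was named for its promoter alone. Gene lists are described by counts, with no test of a list. Some genes within the counts are not reported here by name.

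Of the 218 genes named, 48 overlap another annotated gene, mostly on the other strand, so their reads may be shared: Abcg5, Abcg8, Acaa1b, Acaca, Aldh1a1, Bhmt, Bmp6, Cept1, Ces3a, Chka, Col4a1, Col4a2, Csf1r, Cxcl16, Cyp2a4, Fabp2, G6pdx, Gclm, Glul, Gpx2, Grn, Gss, Hk3, Irf7, Irf9, Keap1, Mafg, Mcm7, Mirt2_1, Mttp, Nfkb2, Nr1i3, Nrxn2, Pdgfa, Pltp, Raet1d, Serpina3m, Slc22a12, Slc48a1, Srebf1, Srebf2, Timp1, Txnrd1, Ugdh, Ugt1a1, Ugt1a6a, Ugt1a9 and Usp18.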

Additional observations from a re-analysis of the deposited data

Results flagged for a closer look

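In each group of 4 libraries, a library was set apart where its gap to the nearest other exceeded, as a share of the group's range, Dixon's 95% critical value. This held in 28 of 436 groups of the named genes (6.42%), where chance gives about 1 in 20. Of these, 16 were in NASH vehicle 1.

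NASH vehicle 1 was the highest of its group for Abcc3 (321 CPM, nearest 234), Abcg5 (33.9 CPM, nearest 22.9), Aldh1a1 (1254 CPM, nearest 1037), Ces3a (1536 CPM, nearest 1176), Clec4f (110.0 CPM, nearest 30.4), Irf7 (97.3 CPM, nearest 59.6), Itih3 (749 CPM, nearest 487), Marco (21.6 CPM, nearest 6.41), Srebf1 (88.5 CPM, nearest 64.0), Tdo2 (907 CPM, nearest 499.5) and Timd4 (0.835 CPM, nearest 0.159). It was the lowest for Cd36 (244 CPM, nearest 330.4), Col3a1 (511 CPM, nearest 802), Hk3 (27.8 CPM, nearest 43.8), Mmp2 (39.4 CPM, nearest 80.4) and Nfkb1 (53.3 CPM, nearest 61.8).

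CDDO-Me 1 was the highest for Fcgr1 (7.08 CPM, nearest 5.29). CDDO-Me 1 was the lowest for Abcc4 (228 CPM, nearest 329). CDDO-Me 2 was the highest for Ccl2 (9.48 CPM, nearest 8.20), Ces1h (3.61 CPM, nearest 2.15) and Gldn (0.281 CPM, nearest 0.0287). CDDO-Me 3 was the highest for Elovl3 (132 CPM, nearest 47.3). CDDO-Me 4 was the highest for Msr1 (21.5 CPM, nearest 16.5) and Myh11 (42.7 CPM, nearest 5.85). CDDO-Me 4 was the lowest for Hlf (18.7 CPM, nearest 23.8). NASH vehicle 2 was the highest for Tekt5 (0.824 CPM, nearest 0.477). NASH vehicle 3 was the highest for Myo7b (1.08 CPM, nearest 0.989). NASH vehicle 4 was the highest for Lcn2 (425 CPM, nearest 300.0).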

How the results depend on the processing

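Against 1545 rises and 1191 falls, library totals gave 926 rises, limma on log2(TPM + 1) 779 rises and 2607 falls, DESeq2 1853 falls, and a 1.5-fold minimum change (edgeR's treat test) 252 rises and 117 falls. An alternative added after seeing the data, without control 3 and CDDO-Me 4, gave 2004 falls. Control 3 held 553 summed CPM of smooth muscle genes, against 109 to 132 in the other control libraries. For cholangiocyte and ductular genes it held 612, against 65.2 to 117. Leaving out 1 library gave 930 to 1972 rises and 617 to 1498 falls. The 67 rises of NRF2 target genes became 43 with the 1.5-fold minimum and 58 to 71 without single libraries. The 15 falls of core macrophage genes became 6 and 13 to 17. The 18 falls of scar matrix genes became 1 and 10 to 24, with 28 on log2(TPM + 1) and 30 without control 3 and CDDO-Me 4. The cause of these shifts was not tested.

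Same-numbered libraries did not deviate together (correlations from -0.22 to 0.19), and a replicate block gave 1250 rises and 927 falls and lost the fall of Nfe2l2 (edgeR adjusted p = 0.0514). Genes that changed sign were not called in any of these fits: Acta2 was at -0.10 on log2(TPM + 1), -0.46 without control 3 and CDDO-Me 4, and from -0.46 (without CDDO-Me 4) to 1.10 without single libraries. Alb was at -0.043 with library totals, -0.10 on log2(TPM + 1), and from -0.010 (without CDDO-Me 2) to 0.31 without single libraries. Timd4 was at -1.93 to 0.57 without single libraries, above 0 without NASH vehicle 1.

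Of the 302 called genes that the naming rule allowed, 227 (75.2%) kept their call without each of the 12 libraries. Of those named in the text 192 of 196 did, and of those not named 35 of 106, so the named genes are steadier than the rule's full set by choice. Of the genes with a mean under 1 CPM 4.34% were called, against 32.8% of those with at least 100 CPM, and what size of change the depth lets the test detect there was not tested.

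Of 77 counts by gene list, 1 for each list and direction with at least 1 call, leaving out 1 library moved 2 to 36 by over 1.5 times, the highest number without NASH vehicle 4. The 8 NASH libraries alone moved 11, DESeq2 7, log2(TPM + 1) 31 and the 1.5-fold minimum 67.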
